A study of Mus musculus with 2 samples.

Results

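The Inmt, Osr1 and Rspo1 fibroblasts described here are 200 of 1145 fibroblasts among 1426 heart cells. They were chosen by RNA level alone. A fibroblast was a cell whose mean value of Dcn, Col1a2, Lum and Col3a1 was at least 1.5 on the deposited natural log scale and above its mean value of the macrophage genes Lyz2, C1qa, C1qb and Fcer1g. The values of Fst, Inmt, Rspo1, Osr1, Myoc and Sned1 were each turned into z-scores over all fibroblasts, and the 200 cells with the highest mean z are called members below. The other 945 fibroblasts are the cells they are set against, within each library.

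All cells came from hearts of C57BL/6 mice aged 20 to 22 months that carried the p16-FDR construct, which joins an FLP recombinase and a diphtheria toxin receptor fused to mCherry. All had passed a sort for mCherry, so both sets of cells share genotype, age and sort, and there was no young, unsorted or mCherry-negative group. The 2 libraries, named Heart1 and Heart2 in the table, are samples of 1 group. Nothing in the labels ties the libraries to different animals. A p-value here rests mostly on the spread between libraries pooled over many genes, which may be technical. It says little of how alike the difference of a single gene was in both libraries. Labels name the reporter after p16, the product of Cdkn2a, and Cdkn2a RNA in the members is given further on.

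Fibroblasts build and repair the connective tissue of the heart, and their subsets differ in which secreted proteins they make. Rspo1 encodes R-spondin 1, a secreted protein that binds LGR receptors and strengthens Wnt signals. Fst encodes follistatin, a secreted protein that binds and blocks activins. Osr1 is a zinc finger transcription factor of embryonic and progenitor mesenchyme. Inmt encodes indolethylamine N-methyltransferase, which passes methyl groups from S-adenosylmethionine to small amines. Myoc encodes the secreted glycoprotein myocilin, best known from the eye's outflow tissue, and Sned1 encodes a glycoprotein of the extracellular matrix.

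Promoter sequences are shown for Inmt, the gene that gives the set its name, and for C3 and C7, which are complement genes with higher levels in the members (below). They are RefSeq promoters of GRCm38.p6, 250 bases before to 50 bases after the start, written 5′ to 3′ on the gene's strand. Inmt is at chr6:55174941-55175240, C3 at chr17:57228087-57228386 and C7 at chr15:5063724-5064023, all on the minus strand. Capitals mark matches on either strand to TTNNGNAA, which reads TTNCNNAA on the other strand. This is a loose form of the site of C/EBP factors, transcription factors of acute-phase and complement genes.
Inmt: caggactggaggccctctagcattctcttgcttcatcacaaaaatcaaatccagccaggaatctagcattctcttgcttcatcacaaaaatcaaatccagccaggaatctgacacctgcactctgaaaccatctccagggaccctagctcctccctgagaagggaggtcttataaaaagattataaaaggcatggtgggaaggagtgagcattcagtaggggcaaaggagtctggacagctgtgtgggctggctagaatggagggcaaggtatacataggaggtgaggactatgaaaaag
C3: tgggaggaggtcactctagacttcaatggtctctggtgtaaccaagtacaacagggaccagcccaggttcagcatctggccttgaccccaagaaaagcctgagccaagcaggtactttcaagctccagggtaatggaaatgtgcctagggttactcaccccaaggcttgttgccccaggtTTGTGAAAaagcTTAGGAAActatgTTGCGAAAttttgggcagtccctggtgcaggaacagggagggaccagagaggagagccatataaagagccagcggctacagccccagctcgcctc
C7: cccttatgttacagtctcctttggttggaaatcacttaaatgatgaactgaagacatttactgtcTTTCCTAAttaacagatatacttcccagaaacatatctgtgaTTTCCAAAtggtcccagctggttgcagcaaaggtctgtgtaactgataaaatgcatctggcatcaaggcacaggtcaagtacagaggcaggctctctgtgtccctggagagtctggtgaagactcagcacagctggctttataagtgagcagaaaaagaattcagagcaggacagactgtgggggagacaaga

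The C3 window held 3 matches, the C7 window 2 and the Inmt window 0. Such a match was present in 40.7% of 32851 RefSeq promoters of the same length, so it is a description of these letters and not of a bound factor. The motif was chosen after the complement values were seen. Of the 6 complement genes with higher levels in the members, 4 had a promoter entry, and all 4 held a match in at least 1 entry.

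The members were checked against cell type markers. Summed over 10 fibroblast markers, the level was 74865 CPM (UMIs of a gene scaled to a common total of all UMIs of that set in that library) in Heart1 members and 55870 CPM in the other Heart1 fibroblasts. In Heart2 the sums were 68498 CPM in members and 64163 CPM in the others. The fibroblast receptor gene Pdgfra stood at 418 and 559 CPM in the members of Heart1 and Heart2. Summed over 10 macrophage markers the members had 6.24 CPM in Heart1 and 18.7 CPM in Heart2, against 120 and 21.7 CPM in the others. Of these 10 markers, 8 were at 0 in Heart1 members, Csf1r and Tyrobp among them, and 1, Adgre1, in Heart2 members. The 10 lymphocyte markers were all at 0 in members of both libraries. Of 10 endothelial markers, 7 and 4 were at 0 in Heart1 and Heart2 members, with Cldn5 and Tie1 at 0 in both, and the sums were 56.1 and 109 CPM, against 56.9 and 81.7 CPM in the others. The fibroblast and macrophage sums follow in part from the rule, which used 4 genes of each kind, but not Pdgfra, Csf1r or Tyrobp. The 3 genes of the set's name were seldom found in 1 cell. Of the 200, 39 members (19.5%) had a UMI of Inmt, Osr1 and Rspo1 together, 179 had at least 1 of them, and among the others these counts were 0 and 292.

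Members made up 25 of 206 fibroblasts in Heart1 (12.1%, exact binomial 95% interval 8.01 to 17.4%) and 175 of 939 in Heart2 (18.6%, 16.2 to 21.3%). The intervals cover counting error only, and no cell barcode was shared by the libraries. Sequencing depth differed little between the sets. The median was 11871 UMIs per cell in Heart1 members and 11917 in the others, and 9141 in Heart2 members and 8660 in the others. Total UMIs were 320764 and 1600261 in the members of Heart1 and Heart2, so values of Heart1 members rest on the fewest counts. The median mitochondrial share was 3.61% in Heart1 members against 3.33% in the others, and 5.07% in Heart2 members against 5.20% in the others.

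The 6 genes that chose the members are given as a description, with no test. Inmt, on chromosome 6 (chr6:55170626-55175043, minus strand, GRCm38), had 330.5 CPM in Heart1 members and 10.8 CPM in the others, and 345 CPM in Heart2 members and 30.6 CPM in the others. Osr1 (chr12:9570116-9581500, plus strand) had 109 CPM in Heart1 members against 18.7 CPM, and 177 CPM in Heart2 members against 24.2 CPM. Rspo1 (chr4:124986430-125009099, plus strand) was the lowest of the 6 in Heart1 members at 24.9 CPM, against 4.98 CPM, and had 100 CPM in Heart2 members against 8.75 CPM. Fst (chr13:114452290-114458951, minus strand) stood at 74.8 CPM in Heart1 members against 14.9 CPM, and at 130 CPM in Heart2 members against 7.0 CPM. Myoc (chr1:162639155-162649693, plus strand) was the most abundant of the 6 in members of both libraries. It had 571 CPM in Heart1 members against 97.2 CPM, and 428 CPM in Heart2 members against 129.7 CPM. Sned1 (chr1:93235841-93301065, plus strand) had 49.9 CPM in Heart1 members against 5.40 CPM, and 58.7 CPM in Heart2 members against 9.63 CPM.

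By cells, Inmt was detected in 64.0% of Heart1 members and 7.73% of the others, and in 61.7% of Heart2 members and 12.6% of the others. In non-fibroblasts, which should lack it, 0 of 60 Heart1 cells and 4 of 221 Heart2 cells (1.81%) had an Inmt UMI, at median depths of 7369 and 9429 UMIs. The exact upper limit for 0 of 60 is 5.96%, or 5.0% at a floor of 3 counts. Rspo1 was the gene whose share differed most between libraries, at 28.0% of Heart1 members against 2.76% of the others and 50.9% of Heart2 members against 6.54% of the others. Myoc was found in 64.0% of Heart1 members and 28.7% of the others, and in 52.0% of Heart2 members and 28.4% of the others. No other of the 6 was detected in as many of the others.

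**Figure D1:**
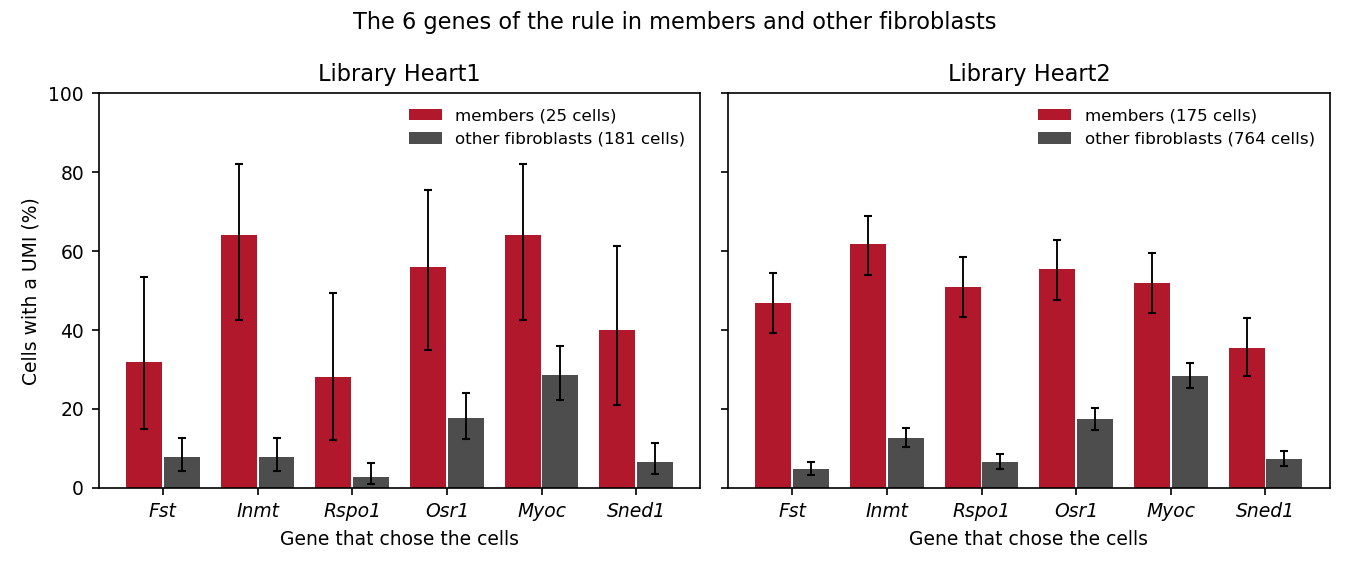
Share of cells (%) with at least 1 UMI of each of the 6 genes that chose the members, in members (red) and other fibroblasts (grey) of each library, with exact binomial 95% intervals (counting error only). The gap between the colours follows from the choice of cells, and Myoc was also found in 28.7% and 28.4% of the other fibroblasts of Heart1 and Heart2.

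No member had all 6 genes: 3 members had 1 of them, 57 had 2, 90 had 3, 37 had 4 and 13 had 5. Across the 1145 fibroblasts, Inmt went most with Osr1 (Pearson r = 0.34) and then with Rspo1 (0.24) and Fst (0.21). Myoc did not follow them, with r = -0.03 with Inmt and -0.06 with Osr1. These cells share 2 libraries and sparse counts, so the values are descriptions. The members held different mixtures of the genes. Inmt or Osr1 together with Myoc was found in 73 members, Inmt or Osr1 without Myoc in 85, Myoc with neither in 34, and none of the 3 in 8. The threshold fell where scores ran on without a gap. The mean z was 2.58 in the highest member, 0.776 in the median member and 0.392 in the lowest, and 0.389 in the highest cell outside. The 20 members nearest the threshold and the 20 cells nearest below it both had a median of 2 of the genes.

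What the members shared beyond the 6 genes was first described by their neighbours, with those genes left out. Of the 15 nearest fibroblasts of a member, 36.2% were members on average, against 10.1% of the nearest of another fibroblast and 17.5% of all fibroblasts. Within Heart2 the shares were 40.6% around members and 10.9% around others, where 18.6% of cells were members. Within Heart1 they were 24.3% around members and 10.8% around others, where 12.1% were members. Only 58 of the 200 members had mostly members around them.

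Leiden clustering without the 6 genes spread the members over 7 clusters. Cluster 4 held 72 members, 48.6% of its 148 cells and 36.0% of all members, and its leading genes were Hp, Fst, C4b, Inmt, Lypd1, Igfbp3, Cnmd and Vit. Cluster 3, led by Ly6c1, Cd248, Efhd1 and Ackr3, held 51 members, and cluster 1, led by Thbs4, Cilp and Postn, held 33. The libraries differed in this: 69 of 175 Heart2 members but only 3 of 25 Heart1 members were in cluster 4, while 10 of the 25 Heart1 members were in cluster 1. Cluster 5 held 5 members of 146 cells, and cluster 6, led by the interferon-induced genes Ifit3 and Ifit1, held 3 of 121.

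**Figure D2:**
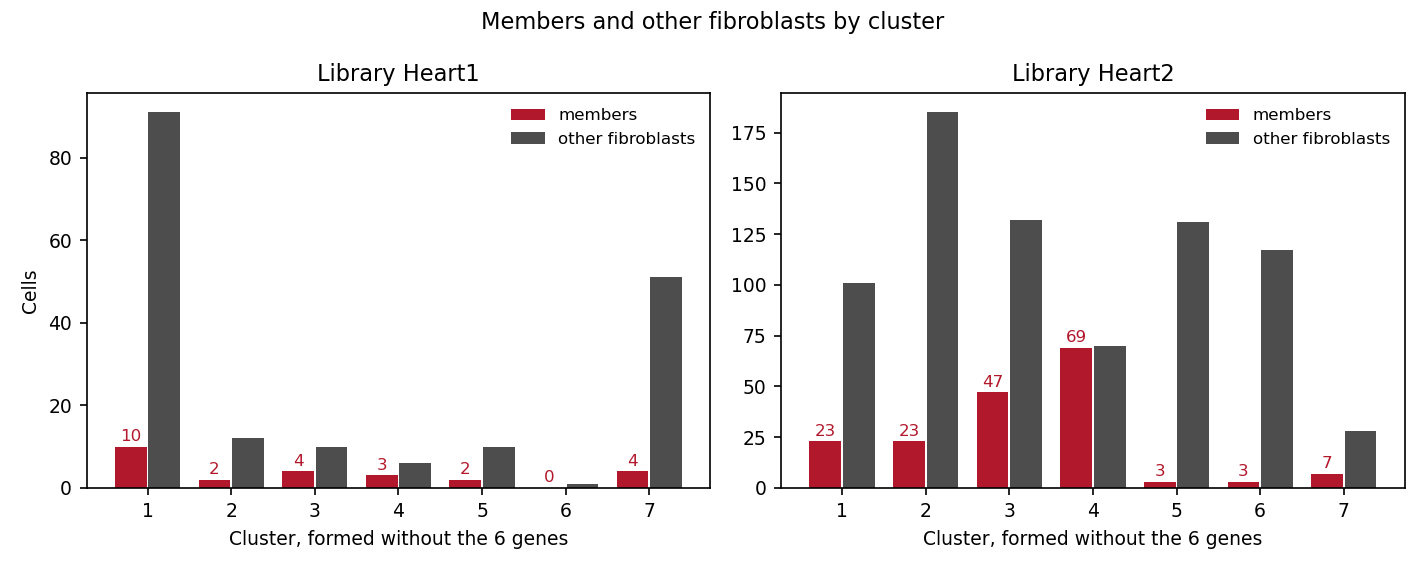
Number of members (red) and other fibroblasts (grey) in each of 7 Leiden clusters formed without the 6 genes, for each library (the cell axes differ). Cluster 4 held 69 of the 175 Heart2 members and 3 of the 25 Heart1 members, and cluster 1 held 10 of the 25 Heart1 members.

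Members were then compared with the other fibroblasts of their library over all genes outside the rule. The 10 genes named for the highest differences were the acute-phase protein gene Hp, chondromodulin (Cnmd), the IGF carrier Igfbp3, the complement gene C4b, the cardiomyocyte gene Tnnt2, the prostaglandin receptor gene Ptgfr, the chemokine receptor gene Cx3cr1, the aldehyde oxidase gene Aox3, the guidance cue Slit3 and the retinol carrier Rbp4. Among genes called lower were Thbs4, Fmod and Wif1, and the chemokine Ccl2. limma on log2(CPM + 5) of summed UMIs, with library as a block, called 183 of 8578 genes (2.13%) at an adjusted p under 0.05, of which 75 (0.874%) were higher and 108 (1.26%) lower in members. With median ratio scaling in place of total UMIs the split was 98 higher and 93 lower. The sign was the same in both libraries for 74 of the 75 higher and 102 of the 108 lower genes. Calling on the mean of both library differences favours such genes, so these counts are not a replication. Over all tested genes the sign was the same for 55.2%, and the differences of the libraries had a Pearson r of 0.19. A difference of at least 2-fold in both libraries was found for 16 of the higher (0.187% of genes tested) and 18 of the lower genes (0.210%). The median difference over all tested genes was -0.06. With 1 residual degree of freedom from the sums and 193 drawn from other genes, the fit's errors understate how far a single gene differs between the libraries. With no replicate block limma called 0 genes in either direction (90 higher and 156 lower at an unadjusted p under 0.05), and 0 genes were called under all 15 alternatives run.

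**Figure D3:**
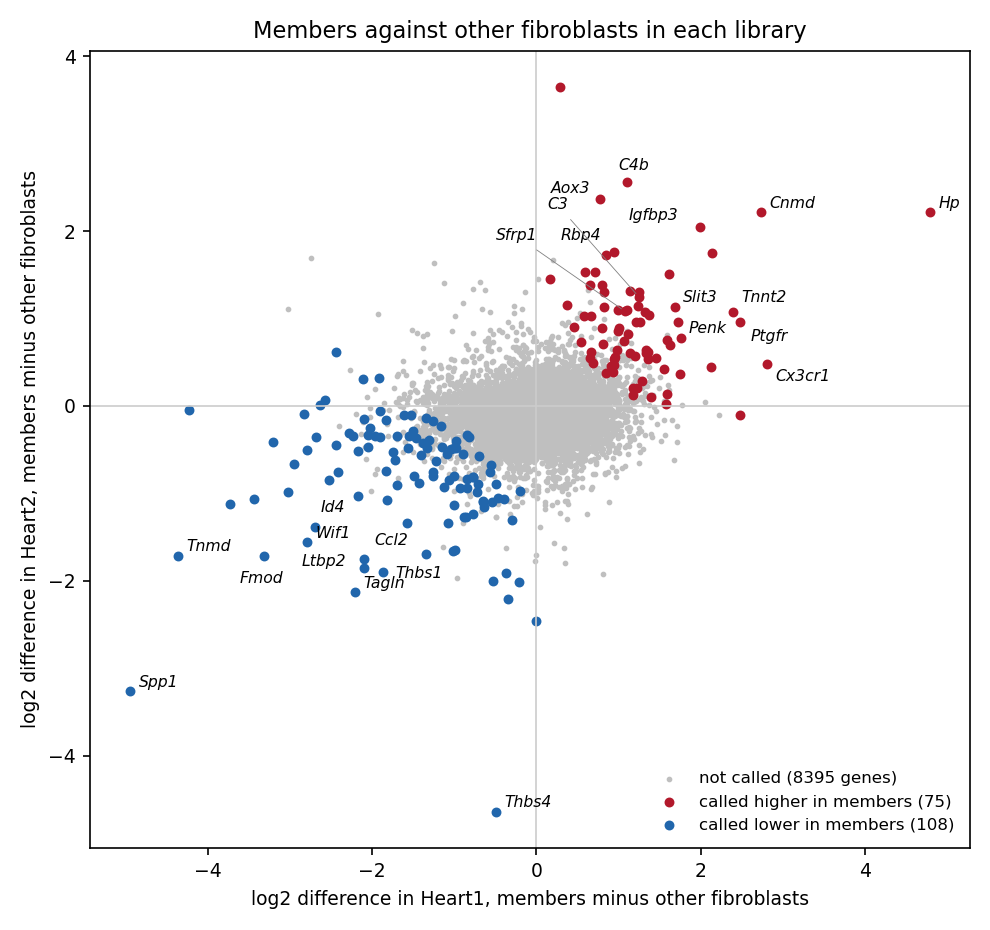
log2 difference in CPM + 5, members minus other fibroblasts, in Heart2 (y axis) against Heart1 (x axis) for 8578 genes, with 75 called higher (red) and 108 called lower (blue) by limma. Hp, Cnmd and Igfbp3 lie far up in both libraries, whereas Thbs4 is at -0.49 in Heart1 and -4.64 in Heart2.

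Hp, haptoglobin, which binds free haemoglobin and is a plasma acute-phase protein, had 156 CPM in Heart1 members against 0.830 CPM in the others, and 139 CPM in Heart2 members against 26.0 CPM. It was the largest called increase (log2 difference 3.50 ± 0.26 SE, limma adjusted p = 1.16e-25, higher in 2 of 2 libraries) and was called in 14 of 15 alternatives. Its RNA was nonetheless held by few cells, 6 of 25 Heart1 members and 20 of 175 Heart2 members, and 1 Heart2 member carried 119 of that set's 222 UMIs. Cnmd, an inhibitor of vessel growth known from cartilage, had 103 CPM in Heart1 members against 11.2 CPM, and 107 CPM in Heart2 members against 19.0 CPM (2.48 ± 0.24, limma adjusted p = 1.88e-16, higher in 2 of 2). Igfbp3, which carries insulin-like growth factors, had 115 CPM in Heart1 members against 25.3 CPM, and 183 CPM in Heart2 members against 40.4 CPM (2.02 ± 0.21, limma adjusted p = 1.54e-14, higher in 2 of 2). Cnmd was detected in 28.0% and 14.9% of Heart1 and Heart2 members, and Igfbp3 in 12% and 17.7%, so both marked a minority of them. In Heart1 members 1 cell held 22 of the 37 Igfbp3 UMIs, and 1 cell held 15 of the 33 Cnmd UMIs.

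Several complement genes were higher in members of both libraries. C3, the central component cleaved in every complement pathway, had 1687 CPM in Heart1 members against 709 CPM in the others, and 2936 CPM in Heart2 members against 1232 CPM. The libraries gave almost the same difference, 1.24 and 1.25 (1.25 ± 0.17, limma adjusted p = 6.13e-09), and C3 was found in 80.0% and 97.7% of Heart1 and Heart2 members, against 63.0% and 82.7% of the others. In non-fibroblasts 1 of 60 and 36 of 221 cells (1.67% and 16.3%) had a C3 UMI. C4b, a component of the classical and lectin pathways, had 496 CPM in Heart1 members against 229 CPM, and 419 CPM in Heart2 members against 66.8 CPM (1.83 ± 0.19, limma adjusted p = 9.90e-16, higher in 2 of 2). C4b has a near-identical copy in the mouse genome, so its level is uncertain to that extent. The 200 fibroblasts highest for Wif1, Thbs4, Comp and Coch were also left out of members and others. This left 13 members and 64 others in Heart1. Without that Wif1, Thbs4, Comp and Coch set, the C4b difference was 0.10 in Heart1 and 2.93 in Heart2, and C4b was not called. C7, a part of the membrane attack complex, had 171 CPM in Heart1 members against 63.5 CPM, and 86.2 CPM in Heart2 members against 39.4 CPM (1.2 ± 0.21, limma adjusted p = 8.51e-06, higher in 2 of 2). Of the 17 tested complement and serpin genes 6 rose, which also include the proteases C1ra and C1s1 and the inhibitor Serping1, and Clu fell. The other 10 did not pass, and the list's median difference was 0.38, against -0.06 over all genes. For this list and those that follow, the share over all tested genes was 0.874% higher and 1.26% lower.

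Of 45 tested chemokines, cytokines and growth factors, 8 rose, 4 fell and 33 were not called. The list's median difference was 0.07, and -0.07 in Heart2, and 0.874% of all tested genes were higher and 1.26% lower. Penk, the precursor of enkephalin peptides, had 284 CPM in Heart1 members against 82.2 CPM, and 405 CPM in Heart2 members against 206 CPM (1.34 ± 0.18, limma adjusted p = 2.80e-09, higher in 2 of 2). Slit3, a secreted guidance protein that binds ROBO receptors, had 112 CPM in Heart1 members against 31.6 CPM, and 144 CPM in Heart2 members against 62.9 CPM (1.41 ± 0.21, limma adjusted p = 1.05e-07, higher in 2 of 2). Slit3 was broad, with a UMI in 68.0% and 61.7% of Heart1 and Heart2 members, against 23.2% and 36.8% of the others and 0 of 60 and 1 of 221 non-fibroblasts. The lymphatic growth factor Vegfd had 28.1 CPM in Heart1 members against 5.81 CPM, and 67.5 CPM in Heart2 members against 20.4 CPM (1.56, limma adjusted p = 4.10e-05), but its difference was -0.80 when cells were thinned to 3000 UMIs. Ccl2, which draws monocytes, fell to 49.9 CPM in Heart1 members against 230.5 CPM, and to 66.9 CPM in Heart2 members against 237 CPM (-1.93 ± 0.19, limma adjusted p = 9.90e-16, lower in 2 of 2). Ccl2 was found in 3 of 25 and 7 of 175 Heart1 and Heart2 members, against 17 of 181 and 79 of 764 of the others. In Heart1 members 12 of its 16 UMIs lay in 1 cell. Within cluster 4 of Heart2 the direction turned, with 89.9 CPM in members against 1.69 CPM in its other cells. This turn rested on 1 member, which held 52 of the 54 Ccl2 UMIs of the members there. In clusters 1, 2 and 3 of Heart2 the members had less.

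Of 10 tested genes of the insulin-like growth factor group, 3 rose and none fell. Beside Igfbp3 these were Igf1, the growth factor itself, and Igfbp4, another carrier. Igf1 had 402 CPM in Heart1 members against 225 CPM, and 526 CPM in Heart2 members against 209.8 CPM (1.07 ± 0.17, limma adjusted p = 1.69e-06, higher in 2 of 2), and every Heart1 member had an Igf1 UMI. Igfbp4 stood at 1752 CPM in Heart1 members against 999 CPM, and at 2153 CPM in Heart2 members against 1311 CPM (0.76, limma adjusted p = 0.00188). The other 7 did not pass, and the list's median difference was -0.08.

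In the Wnt and R-spondin group, to which Rspo1 belongs, secreted antagonists went in both directions. Sfrp1 had 514 CPM in Heart1 members against 241 CPM, and 511 CPM in Heart2 members against 238 CPM, nearly the same in both libraries (1.08 ± 0.17, limma adjusted p = 7.94e-07, called in 13 of 15 alternatives). It was detected in 25 of 25 Heart1 members and 86.3% of Heart2 members, against 74.0% and 59.8% of the others and 3.33% and 0.905% of non-fibroblasts. Frzb, a relative of Sfrp1, fell to 143 CPM in Heart1 members against 229 CPM, and to 67.5 CPM in Heart2 members against 149.9 CPM (-0.88 ± 0.19, limma adjusted p = 0.000966, lower in 2 of 2). Wif1, which binds Wnt ligands, had 56.1 CPM in Heart1 members against 418 CPM, and 1.87 CPM in Heart2 members against 15.2 CPM (-2.17 ± 0.25, limma adjusted p = 1.91e-12). The R-spondin receptor gene Lgr4 had 15.6 CPM in Heart1 members against 15.4 CPM, and 9.37 CPM in Heart2 members against 14.4 CPM, and was not called (-0.21 ± 0.36, limma adjusted p = 0.935). The Wnt target Axin2 was not called either (0.31 ± 0.43, limma adjusted p = 0.901), and Lgr5, Lgr6, Znrf3 and Rnf43 were below the minimum of 10 CPM. In all, 2 of 24 tested genes rose (Sfrp1 and Sfrp2), 3 fell (Wif1, Frzb and Dkk3) and 19 did not pass.

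Among genes of the activin, BMP and TGF-beta group, in which follistatin acts, 1 of 40 tested rose (Id2) and 4 fell. Both activin subunit genes were among those that fell. Inhba had 12.5 CPM in Heart1 members against 80.1 CPM, and 15.6 CPM in Heart2 members against 20.6 CPM (-1.30 ± 0.29, limma adjusted p = 0.00177), so most of its difference lay in Heart1. Inhbb had 15.6 CPM in Heart1 members against 44.4 CPM, and 35.6 CPM in Heart2 members against 65.8 CPM (-1.03 ± 0.25, limma adjusted p = 0.00542, lower in 2 of 2). Ltbp2, which binds microfibrils, fell to 84.2 CPM in Heart1 members against 377 CPM, and to 6.87 CPM in Heart2 members against 37.9 CPM (-1.98 ± 0.22, limma adjusted p = 3.93e-13). The follistatin-like genes Fstl1 (-0.38, limma adjusted p = 0.381) and Fstl3 (-0.71, limma adjusted p = 0.227) were not called, and the receptor genes Acvr2a and Acvr2b were below 10 CPM.

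Retinoid and metabolic genes near the role of Inmt showed few calls. Rbp4, the retinol carrier, had 149.6 CPM in Heart1 members against 75.2 CPM, and 237 CPM in Heart2 members against 66.4 CPM (1.35 ± 0.20, limma adjusted p = 3.45e-08, higher in 2 of 2). It was found in 56.0% and 64.6% of Heart1 and Heart2 members, against 28.2% and 28.8% of the others. Of 15 tested retinoid genes 2 were called higher (Rbp4 and Adh1). Of 33 genes of methyl transfer and drug metabolism 3 were called higher (Cyp1b1, Gpx3 and Adh1). Adh1 rose in Heart1 only, with 53.0 CPM in members against 5.40 CPM in the others. In Heart2 it had 21.9 CPM in members against 23.9 CPM. Aox3, an aldehyde oxidase of a gene family with close relatives, had 24.9 CPM in Heart1 members against 12.5 CPM, and 79.4 CPM in Heart2 members against 11.4 CPM (1.57 ± 0.29, limma adjusted p = 4.33e-05). Apoe, a lipid carrier, was the only one of 21 tested lipid genes to rise (0.68 ± 0.20, limma adjusted p = 0.0365), with 6874 CPM in Heart1 members against 4992 CPM and 10101 CPM in Heart2 members against 5382 CPM.

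Matrix genes split. Col14a1, a collagen that associates with fibrils, rose with 268 CPM in Heart1 members against 104 CPM, and 197 CPM in Heart2 members against 91.0 CPM (1.2 ± 0.19, limma adjusted p = 4.33e-07, higher in 2 of 2). Without the Wif1, Thbs4, Comp and Coch set the Col14a1 difference was -0.67 in Heart1 and 1.06 in Heart2, and it was not called. Col5a2, a fibril-forming collagen, fell to 156 CPM in Heart1 members against 371 CPM, and to 157 CPM in Heart2 members against 245 CPM (-0.93 ± 0.18, limma adjusted p = 0.000121, lower in 2 of 2). Of 22 tested collagens 2 rose (Col6a6 and Col14a1) and 5 fell (Col5a2, Col4a1, Col4a2, Col8a1 and Col12a1), with a median of -0.37. Of 64 tested matrix glycoproteins and proteoglycans 4 rose and 9 fell, with a median of 0.04. Thbs1, a matricellular protein of injury responses, had 90.4 CPM in Heart1 members against 343 CPM, and 30 CPM in Heart2 members against 125 CPM (-1.88 ± 0.20, limma adjusted p = 9.35e-15). It was found in 24.0% and 6.86% of Heart1 and Heart2 members, against 44.8% and 29.7% of the others.

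Of 19 tested genes of the valve, tendon-like and matrifibrocyte list, 10 fell and 2 rose, with a median of -0.80. Spp1, osteopontin, had 1 UMI in Heart1 members (3.12 CPM) against 244 CPM, and 0 in Heart2 members against 42.9 CPM. Its ratio was 0.0128 in Heart1 (counting interval 0.000323 to 0.0714), and it was at least 22.9-fold lower in Heart2 against a floor of 3 counts per library. The tendon gene Tnmd was at 0 in members of both libraries, against 97.6 and 11.4 CPM in the others of Heart1 and Heart2, at least 10.4-fold and 6.07-fold lower against the same floor. Thbs4 had 365 CPM in Heart1 members against 514 CPM, and 0.625 CPM in Heart2 members against 135 CPM (-2.56 ± 0.25, limma adjusted p = 8.24e-17), and 1 Heart1 member held 105 of that set's 117 UMIs. The ratio, interval and fold limits of Spp1 and Tnmd treat UMIs as independent counts. Yet the RNA of these genes lay in few of the other fibroblasts: Spp1 in 17 of 181 and 6 of 764, and Tnmd in 5 of 181 and 3 of 764. By cells, the exact upper limits in Heart1 and Heart2 members were 20.4% and 2.09% for Spp1, and 13.7% and 2.09% for Tnmd. All lay above the shares of the others (9.39% and 0.785% for Spp1, 2.76% and 0.393% for Tnmd), so no lower share of cells was shown. A single Heart2 cell held 277 of the 294 Spp1 UMIs of the others, and 1 Heart1 cell held 248 of 588. For Tnmd 1 cell held 67 of the 78 UMIs of the others in Heart2, and 1 cell held 112 of 235 in Heart1. Fibroblasts among the 200 highest for Wif1, Thbs4, Comp and Coch made up 48.0% of Heart1 members against 64.6% of the others, and 10.9% of Heart2 members against 6.81% of the others. With these cells left out of both sets, an alternative chosen after the data were seen, limma called 11 genes higher and 7 lower. Of 42 named called genes with a value there, 11 were still called: Hp, Cnmd, Igfbp3, Rbp4, Sfrp1, Penk, Igf1 and Apoe higher, and Ccl2, Thbs1 and Frzb lower. C3 (0.89), Slit3 (1.09) and C7 (1.09) kept their sign in both libraries without passing. The sign in Heart1 turned for 5 of the 42, Aox3, Col14a1, Meox1, Tnnt2 and Vegfd.

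Further lists gave the following counts. Of 15 tested interstitial fibroblast genes 6 rose (Cxcl14, Gpx3, Cxcl12, C4b, Dpep1 and Penk) and none fell, with a median of 0.42, which was 0.97 in Heart1 and -0.18 in Heart2. Of 19 tested adventitial genes 1 rose (Ly6a, 0.59 ± 0.17, limma adjusted p = 0.0354). None of the 10 fibroblast markers, 9 mitochondrial transcripts or 16 interferon response genes was called. Of 30 tested positional transcription factors none rose, and Meox1 (-0.80 ± 0.18, limma adjusted p = 0.00111) and Foxs1 (-1.27 ± 0.27, limma adjusted p = 0.000883) fell in both libraries. Of 28 genes of dissociation stress and early response 3 fell, Egr3, Zfp36 and the heat shock gene Hspa1a, which has a near-identical copy. The contractile genes Tagln (-2.17, limma adjusted p = 9.32e-11) and Acta2 (-1.02, limma adjusted p = 0.0347) fell, yet the sign of Tagln turned in 2 alternatives and that of Acta2 in 3. The cardiomyocyte gene Tnnt2 (1.73, limma adjusted p = 9.97e-06) and the chemokine receptor gene Cx3cr1 (1.64, limma adjusted p = 1.91e-05) were called higher, with 34 of 37 and 24 of 30 UMIs of the Heart1 members in 1 cell each. Both signs turned when cells were thinned to 3000 UMIs. The prostaglandin receptor gene Ptgfr had 106 CPM in Heart1 members against 14.9 CPM, and 41.2 CPM in Heart2 members against 18.8 CPM (1.72 ± 0.26, limma adjusted p = 1.71e-07). It was found in 44.0% and 24.6% of Heart1 and Heart2 members, against 12.7% and 13.1% of the others. A single Heart1 member held 19 of the 34 Ptgfr UMIs of that set.

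**Figure D4:**
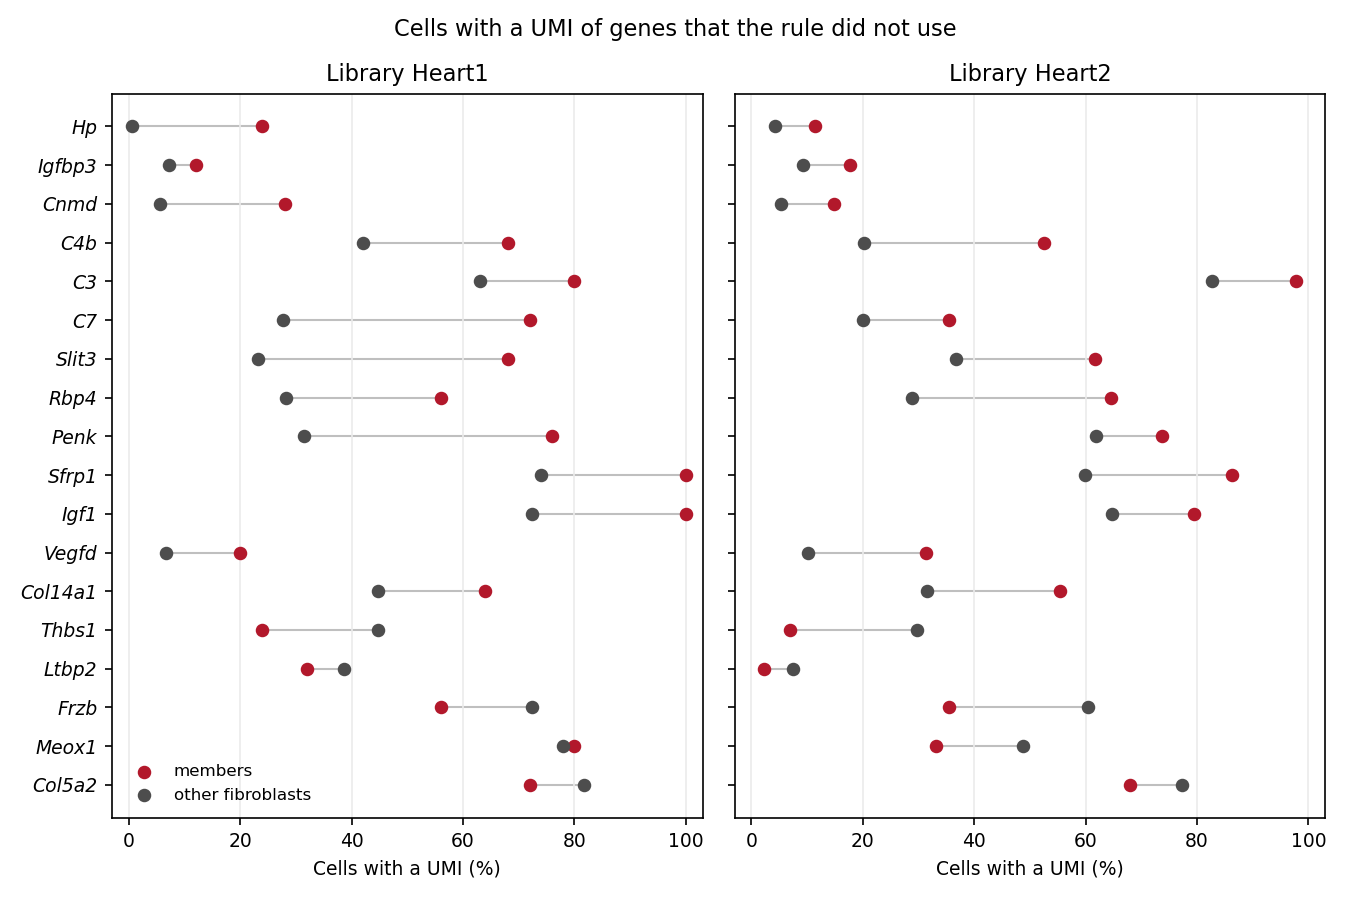
Share of cells (%) with at least 1 UMI of 18 genes that the rule did not use, in members (red) and other fibroblasts (grey) of each library. Slit3 was found in 68.0% and 61.7% of Heart1 and Heart2 members, against 23.2% and 36.8% of the others, whereas Thbs1 was found in 24.0% and 6.86% of members, against 44.8% and 29.7% of the others.

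Within Heart2 the members could also be set against other fibroblasts of the same cluster, for the 4 clusters with at least 20 members. These values are descriptions, since the same cells chose the named genes. Of 26 named genes called higher, 18 were higher in members in all 4 clusters, among them C3, C4b, Cnmd, Igf1, Penk, Rbp4, Sfrp1 and Slit3. C4b had 813 CPM in members of cluster 4 against 137 CPM in its other cells, 143 against 25.8 CPM in cluster 3, 158 against 48.4 CPM in cluster 2 and 91.9 against 40.4 CPM in cluster 1. Igfbp3 had 306 CPM in Heart2 members of cluster 4 against 49.1 CPM in its other cells, and 0 UMIs in the 23 Heart2 members of cluster 1. Heart2 members outside cluster 4 still had 109 CPM of Igfbp3, against 40.4 CPM in the other fibroblasts, and in Heart1 it was at 0 in the 3 members of cluster 4 and at 125 CPM in the members outside it. Of 22 named genes called lower, 14 had UMIs in the other cells of all 4 clusters, and 3 of those (Cst6, Frzb and Inhbb) were lower in members in all 4. Hp had 321 CPM in Heart2 members of cluster 4 against 179 CPM in the other Heart2 cells of that cluster. A single member held 119 of the 193 Hp UMIs of those members. Heart2 members outside cluster 4 had 29.0 CPM of Hp, and the other Heart2 fibroblasts of all clusters had 26.0 CPM.

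The cells were sorted on a p16 reporter, so the cell cycle inhibitors were examined whatever their value. Cdkn2a had 99.8 CPM in Heart1 members against 80.1 CPM in the others, and 0 UMIs in Heart2 members against 2.63 CPM, and 1 Heart1 member held 25 of the 32 UMIs. A Cdkn2a UMI was found in 6 of 25 Heart1 members (24.0%, 9.36 to 45.1%) against 66 of 181 of the others (36.5%, 29.5 to 43.9%). In Heart2 it was found in 0 of 175 members (exact upper limit 2.09%, or 1.71% at a floor of 3 counts), against 7 of 764 of the others (0.916%). Non-fibroblasts had it in 41.7% of Heart1 cells and 26.7% of Heart2 cells. The shares differed more between the libraries than between members and others, and no difference was detectable in limma (-0.15 ± 0.32, limma adjusted p = 0.944). Cdkn1a, which encodes p21, had 187 CPM in Heart1 members against 241 CPM, and 92.5 CPM in Heart2 members against 165 CPM, and was not called (-0.58 ± 0.19, limma adjusted p = 0.0810, lower in 2 of 2). Of its 60 UMIs in Heart1 members, 31 lay in 1 cell. Cdkn2b was not called (-0.49 ± 0.31, limma adjusted p = 0.665). Of 13 tested senescence genes 1 rose, Cdkn1c, which encodes the inhibitor p57, with 118 CPM in Heart1 members against 59.4 CPM and 127 CPM in Heart2 members against 86.2 CPM (0.74 ± 0.20, limma adjusted p = 0.0205).

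The members were also set against like sets chosen in the same manner. The 200 fibroblasts highest for Pi16 and Dpp4, genes of adventitial-type fibroblasts, shared 55 cells with the members, 27.5% of them, against 17.5% if spread evenly. With shared cells left out, 17 and 128 members of Heart1 and Heart2 were set against 27 and 118 cells of that set. limma called 424 of 8501 genes (4.99%), 175 (2.06%) higher and 249 (2.93%) lower in members. With no replicate block the calls fell to 20 higher and 32 lower. Igfbp3 (5.09 ± 0.35, limma adjusted p = 1.22e-24), C4b (4.28 ± 0.22, limma adjusted p = 2.05e-34) and Apoe (2.59 ± 0.16, limma adjusted p = 5.54e-28) were higher in members in both libraries. Penk, Cxcl14 and Igf1 were also higher, by 2.57, 2.07 and 1.40 on the log2 scale. Ltbp2 (-2.84 ± 0.29, limma adjusted p = 7.16e-14) and Fstl1 (-1.23 ± 0.16, limma adjusted p = 4.44e-10) were lower, as was the adventitial marker Ly6a (-0.62 ± 0.16, limma adjusted p = 0.00465), which was higher in members than in all other fibroblasts. C3 (0.44 ± 0.16, limma adjusted p = 0.0992) and Col14a1 (-0.19 ± 0.20, limma adjusted p = 0.760) were not called against this set. Wif1 (2.24 ± 0.63, limma adjusted p = 0.0154) was higher in members than in this set, by 4.04 in Heart1 and 0.44 in Heart2, though lower than in all other fibroblasts. Thbs4 was lower (-1.23 ± 0.35, limma adjusted p = 0.0165), with 1.35 in Heart1 and -3.81 in Heart2. Among all 25 Heart1 members, 1 cell held 15 of 18 Wif1 UMIs and 1 cell held 105 of 117 Thbs4 UMIs. The same members enter both comparisons.

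The 200 fibroblasts highest for Hsd11b1 and Ccl11, genes of interstitial fibroblasts, shared 23 cells with the members (11.5%). Only 8 cells of that set were left in Heart1, so differences are given without a test. Igfbp3 differed by 4.83 in Heart1 and 2.83 in Heart2 (log2, members minus set), C4b by 1.63 and 2.89, Rbp4 by 1.91 and 2.40, and Sfrp1 by 1.53 and 1.56. Penk differed by -0.25 and 0.68, and Cxcl14 by 0.38 and 0.02. C3 differed by 0.60 and 1.19. Genes called lower against all other fibroblasts went in both directions here. Wif1 (3.84 and 0.51), Thbs4 (6.46 and 0.19) and Ltbp2 (4.34 and 0.56) were above 0 in Heart1 and Heart2. Col5a2 (-0.49 and -0.61) and Inhbb (-0.45 and -1.09) were below 0. Ccl2 (3.51 and -4.39) and Thbs1 (4.49 and -2.74) had opposite signs in the libraries. Much of the Heart1 RNA of these genes lay in single members. Among all 25 Heart1 members, 1 cell held 15 of 18 Wif1 UMIs, and 1 cell held 105 of 117 Thbs4 UMIs. The top cell held 12 of 27 UMIs for Ltbp2, 12 of 16 for Ccl2 and 13 of 29 for Thbs1.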

How the data were processed

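The data were 10x Genomics 3′ single-cell RNA libraries, counts of unique molecular identifiers (UMIs). Cell Ranger 3.0.2 and build mm10 are named in the submitters' processing notes. For the cell filters and the scaling, no tool is named in the labels or the file. Values the authors deposited, for 15247 genes, are natural log values, ln(1 + UMIs scaled to 10000 per cell), a unit read from the values themselves. UMIs were recovered as whole multiples of the lowest value of each cell (all 4459440 values above 0 within 1e-06).

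UMIs were summed per library and set, leaving the rule genes out, and log2(CPM + 5) was tested with limma 3.58.1 (R 4.3.3), with library as a block, eBayes with a trend, and p-values adjusted by Benjamini-Hochberg over genes with a mean of at least 10 CPM. Fold changes on this scale understate those of low genes. No count model was used, a choice made because the deposited values are logs, although whole UMIs were recovered from them. The block is the library that members and others share. The code of the fit was also run on simulated Poisson counts. Those held no genes with most UMIs in 1 cell, so that run says nothing of the errors for such genes. The Pi16 and Hsd11b1 sets needed at least 10 cells in each library, so the second had no test and its alternatives were not run. Clusters came from scanpy 1.11.5 and igraph 0.11.9 (2000 variable genes, 30 components, 15 neighbours, resolution 0.8). Doublets predicted with scrublet (6 of 1426 cells, 1 a fibroblast) were kept.

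Named genes were the 10 largest called differences in each direction among genes of at least 50 CPM in a set with the same sign in both libraries, up to 3 called genes of each list, the inhibitors Cdkn2a, Cdkn1a and Cdkn2b and genes of the R-spondin and activin pathways. Clusters' leading genes, marker genes and genes given only as members of a list's count stand outside this rule. So do Saa3, C1s1, C1ra, Serping1 and Adh1, which were chosen after their values were seen. The members and lists were chosen with earlier results of these data known. Symbols matched a gene name table for 15087 of 15247 genes, and positions are from GENCODE on GRCm38, the assembly of mm10.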

Additional observations from a re-analysis of the deposited data

How the results depend on the processing

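The alternatives gave 795 values of 48 named called genes. Of these, 504 kept direction and, where tested, side of the threshold, 282 kept direction without passing it and 9 changed sign. The 504 include, for every gene, the differences of each library alone. Such values had no test, and their sign was fixed in advance, since these genes were chosen for the same sign in both libraries. Those 9 were Tnnt2 (-1.35), Cx3cr1 (-0.16) and Vegfd (-0.80) in cells thinned to 3000 UMIs, Tagln (0.15) and Acta2 (0.61) with 300 members, Acta2 (0.66) with z-scores within each library, and Cx3cr1 (-0.94), Tagln (0.05) and Acta2 (1.19) with members by Fst, Inmt, Rspo1 and Osr1 alone. Counts of calls moved more, and the cause was not tested. Genes higher and lower in members numbered 9 and 6 with the mean over cells, 0 and 0 with no replicate block and 17 and 7 with 300 members. They numbered 44 and 47 in fibroblasts at a mean of 2 or more, 11 and 9 with z-scores within each library and 8 and 33 after thinning. With the 4 genes they numbered 6 and 5, and without the Wif1, Thbs4, Comp and Coch set 11 and 7. Fibroblasts with a macrophage mean of 0.5 or more were 2 cells in Heart1 and 1 in Heart2, none of them members. Without them 54 genes were higher and 70 lower. Without the 1 fibroblast predicted to be a doublet, 59 were higher and 74 lower, against 75 and 108 as reported. The counts of calls thus moved when very few cells were dropped. The prior degrees of freedom also changed, being 193 as reported, 9.79 with the mean over cells and 4.67 with no replicate block. They were 33.5 without the cells of high macrophage mean and 38.9 without the predicted doublet. Against the Pi16 set, no replicate block gave 20 and 32. Each library alone kept the sign of 74 to 75 higher and 103 to 107 lower genes, and of 173 to 175 and 242 to 248 against the Pi16 set. Both libraries entered the calls, which favours such counts. Members were 1.94% of Heart1 and 10.2% of Heart2 fibroblasts with 100 members, and 18.0% and 28.0% with 300; with 100, only 4 Heart1 cells were left and no test was run. No gene was called under all 15 alternatives. Hp and Igfbp3 were called in 14, Cnmd, Sfrp1 and Spp1 in 13, and C3, C4b, Penk, Postn, Wif1 and Aspn in 12. Heart1 values rest on 25 members.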

Other observations

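Some called genes differed in size between the libraries. Cxcl14, a chemokine of fibroblasts, had 2743 CPM in Heart1 members against 626 CPM in the others, and 3200.1 CPM in Heart2 members against 2346 CPM (differences of 2.12 and 0.45). Gpx3, a secreted peroxidase, had 1456 CPM in Heart1 members against 641 CPM, and 1422 CPM in Heart2 members against 1304 CPM, and the dipeptidase gene Dpep1 had 1353 against 514 CPM and 1973 against 1841 CPM. The acute-phase gene Saa3, named after its values were seen, stood at 3.12 CPM in Heart1 members against 1.66 CPM, and at 66.9 CPM in Heart2 members against 0.730 CPM, with 95 of the 107 UMIs of the Heart2 members in 1 cell.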
